A study of Homo sapiens with 6 samples.

Results

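RNA polymerase I (Pol I) peaks of LNCaP cells treated with BMH-21 were set against those of cells given the vehicle dimethyl sulfoxide (DMSO). All peaks of both Pol I lists were taken, 42547 from the DMSO library and 1932 from the BMH-21 library, 44479 peaks in all. LNCaP is an established human prostate cancer line. The treated cells received 1 µM BMH-21 for 6 h and the control cells DMSO, chromatin was precipitated with the C-1 antibody (Santa Cruz Biotechnology), and each treatment gave 1 Pol I library, so these are 2 of the 6 samples of the series. The input libraries and the libraries of the other antibody were not analysed here. With 1 library per treatment no difference between treatments could be tested against replicate error. Intervals below are exact 95% intervals over the peaks of a list and cover counting error only. The read depth of the libraries is unknown.

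Pol I transcribes the repeated ribosomal DNA in the nucleolus and makes the precursor of the large ribosomal RNAs, with its own initiation factors and promoter. BMH-21, a planar compound that inserts between the bases of GC-rich DNA, blocks Pol I transcription and leads to loss of the large Pol I subunit. The ribosomal DNA arrays are largely missing from the chromosome sequences of the hg19 build that the files use, so peaks on the named chromosomes describe the rest of the genome. All 24 chromosomes held peaks in both lists.

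The leading DMSO peaks lay mostly at named genes, and an actin gene was among the places where the lists met. No hg19 genome was used, so the bases under the peaks are not shown, and promoters of 300 bases (250 before to 50 after the gene start) from RefSeq on GRCh38.p14 stand in for them. They are printed for 2 genes at the highest-scored DMSO peaks and for ACTG1, cytoplasmic gamma actin, where peaks of both lists lay. Each CG dinucleotide is in capitals, and whether a peak covers the window was not determined.
PA2G4: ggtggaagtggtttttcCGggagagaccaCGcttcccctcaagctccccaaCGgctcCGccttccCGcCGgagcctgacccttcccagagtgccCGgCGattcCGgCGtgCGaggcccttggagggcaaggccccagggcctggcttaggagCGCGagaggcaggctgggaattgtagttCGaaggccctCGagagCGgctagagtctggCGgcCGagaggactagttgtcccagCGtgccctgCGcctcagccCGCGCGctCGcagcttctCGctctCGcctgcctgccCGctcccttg
COPS8: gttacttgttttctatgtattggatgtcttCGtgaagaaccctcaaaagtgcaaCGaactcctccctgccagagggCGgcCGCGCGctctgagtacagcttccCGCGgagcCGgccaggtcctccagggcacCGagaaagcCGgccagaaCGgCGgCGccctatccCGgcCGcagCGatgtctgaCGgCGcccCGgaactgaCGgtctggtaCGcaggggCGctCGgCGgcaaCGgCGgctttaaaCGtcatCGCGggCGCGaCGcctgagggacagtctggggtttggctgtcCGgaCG
ACTG1: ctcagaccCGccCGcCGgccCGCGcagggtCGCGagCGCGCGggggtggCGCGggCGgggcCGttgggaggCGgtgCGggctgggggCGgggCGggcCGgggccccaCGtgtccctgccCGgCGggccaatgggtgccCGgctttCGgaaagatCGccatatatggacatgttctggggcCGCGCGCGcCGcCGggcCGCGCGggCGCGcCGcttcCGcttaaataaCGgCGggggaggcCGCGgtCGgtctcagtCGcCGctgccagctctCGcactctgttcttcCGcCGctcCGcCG

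The PA2G4 window held 27 CG dinucleotides, COPS8 held 35 and ACTG1 held 50. CG reads the same on both strands, and 96.0% of the 35116 full-length promoters in the table held at least 1, with a median of 14. A promoter was found for 6 of the 9 genes at the highest-scored DMSO peaks, with a median of 30.5 CG (range 13 to 46). For the genes at the 40 highest-scored BMH-21 peaks 14 of 20 were found, with a median of 18 (range 1 to 50), and for the genes at runs of BMH-21 peaks 13 of 16, with a median of 24 (range 1 to 43). The median GC content was 66.7% for the DMSO genes, 64.7% and 64.3% for the BMH-21 sets and 58.7% over all promoters. These figures describe sets of few genes that were chosen by the peaks.

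The score is the authors' value per peak, started at 50 in both lists and is used here to rank peaks within a list, except where 1 score limit, the DMSO median, was put on both lists although their scales may differ. The DMSO list was led by a peak at TFAP4, a helix-loop-helix transcription factor (chr16:4321173-4323750), with a score of 1327. GSE1, a chromatin-associated protein (chr16:85644522-85647070), followed with 1110, and SNHG3, which hosts small nucleolar RNAs in its introns (chr1:28836116-28838391), with 1106. TYMP, thymidine phosphorylase, had a score of 1036. RRP1B, a nucleolar protein of ribosome biogenesis, had 1031, and PA2G4, a growth-regulating protein found in the nucleolus, had 1026. COPS8, a subunit of the COP9 signalosome, also had 1026, an unnamed region of chromosome 18 had 1014, NUBP2, an iron-sulfur cluster assembly factor, had 987 and KCND2, a potassium channel gene, had 954. Of these 10 DMSO peaks 1, at SNHG3, had a BMH-21 peak within 1 kb. That BMH-21 peak was 258 bp wide, scored 66.8 and lay 845 bp to the lower side. The other 9 DMSO peaks lay between 34045 bp (KCND2) and 908736 bp (GSE1) from the nearest BMH-21 peak. Over all DMSO peaks 0.578% had a BMH-21 peak within 1 kb, and the median distance to the nearest was 617914 bp. Such distances were therefore not particular to the leading peaks.

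Gene names are those known for these hg19 positions and did not come from an annotation of that build. All 50 named genes stood on the same chromosome in the RefSeq table of GRCh38.p14, and none of their 30 neighbouring pairs was in the opposite order. Exon, intron and promoter overlap was therefore not assigned.

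The BMH-21 list was led by other genes. Its highest score, 3100, belonged to a peak of 4305 bp at VCAN, the extracellular matrix proteoglycan versican (chr5:82832792-82837096), and the nearest DMSO peak was 98966 bp away. IGFBP5, a secreted binding protein of insulin-like growth factors, held a peak of 1909 bp with a score of 1745. IGF2, a growth factor, had 1553, and DPYSL3, a protein of neuronal growth cones, had 1471. VIM, the intermediate filament vimentin, had 1159, MAP1B, a microtubule-associated protein of neurons, had 1089, and GFAP, the intermediate filament of astrocytes (chr17:42992265-42992840), had 1036. Another 2 of the 10 highest-scored peaks lay in unnamed sequence beside the longest peak-free stretch of chromosomes 8 and 17, with scores of 1953 and 1398.

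The BMH-21 ranks 11 to 40 were named after their values were seen. Among the 40 highest-scored BMH-21 peaks, 31 lay at 20 named genes and the other 9 in unnamed sequence no more than 5 Mb from the longest stretch without peaks on their chromosome. MAP1B held 5 of them, and IGFBP5 and GFAP held 3 each. Among the rest GPM6B, a myelin-related membrane glycoprotein, had 896, HSPB8, a small heat shock protein, had 858, and CST3, the protease inhibitor cystatin C, had 851. CLU, the secreted chaperone clusterin, had 673, APOE, the lipid carrier apolipoprotein E, had 661, SLC1A3, the astrocyte glutamate transporter, had 566 and NTRK2, the receptor of brain-derived neurotrophic factor, had 543. The peak with a score of 907 at EEF1A1P5 lay on a processed pseudogene of an elongation factor, and ACTB, ACTG1, GAPDH and FTL have paralogs or processed pseudogenes too, so reads there could have come from another copy.

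The named regions were set against marker lists of cell types. Of 8 prostate markers, 2 (FOLH1 and HOXB13) were named for the DMSO list and 0 for the BMH-21 list. Of 7 fibroblast and mesenchymal markers, 0 were named for DMSO and 2 (VCAN and VIM) for BMH-21. None of the 5 liver and 4 blood markers was named for either list. The count covers only regions picked for naming, so a marker that was not named can still hold peaks. BMH-21 peaks stood inside the DMSO runs at FOLH1 (2) and HOXB13 (1). A DMSO peak with a score of 194.6 lay 6332 bp from the BMH-21 peak at VIM. The named sets are unequal, with 15 genes for the DMSO list (its 10 highest-scored peaks and 6 runs) and 30 for the BMH-21 list (its 40 highest-scored peaks and its runs), so the counts are not compared between lists. No glial list was among them, and the part of other cells or other DNA in the BMH-21 peaks was not tested.

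Peaks of the BMH-21 list were placed by their distance to the nearest DMSO peak. No BMH-21 peak shared a base with a DMSO peak (0 of 1932). Peaks shared by both treatments seem to be absent from the lists, so this count may be set by how the lists were made and is no measure of overlap between the treatments. The peak names show that numbers are missing from both lists. The highest running number was 55470 in the DMSO list, of which 76.7% were listed, and 15755 in the BMH-21 list, of which 12.3% were listed. The median distance from a BMH-21 peak to the nearest DMSO peak was 15956 bp (interval 14684 to 17333). Within 1 kb lay 243 BMH-21 peaks (12.6%, interval 11.1 to 14.1), within 10 kb 763 (39.5%, 37.3 to 41.7) and within 100 kb 1763 (91.3%, 89.9 to 92.5). The largest distance was 893751 bp.

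The number of BMH-21 peaks per kb of distance fell steadily away from the DMSO peaks. It was 490 in the first 100 bp (49 peaks), 154 between 500 and 1000 bp, 45.0 between 5000 and 10000 bp and 5.54 between 50000 and 100000 bp. These counts were not divided by the genome length found at each distance. That length also falls away from the DMSO peaks, so the fall alone is no measure of nearness. Over the 11 distance bins the median width of the BMH-21 peaks was 209 to 227 bp and their median score 57.3 to 62.2, with no steady order by distance. The 144 peaks in runs at genes, which were wider and higher-scored, lay at a median of 33725 bp from a DMSO peak. The median was 14135 bp for the BMH-21 peaks that were neither in a run nor near the longest peak-free stretch. Those 144 peaks came from 16 runs, and peaks of 1 run share much of their distance. Counted by run, the median distance from the edge of the run to the nearest DMSO peak was 14798 bp. A run's edge is at least as near to a DMSO peak as any of its peaks. The run value is therefore not comparable with the per-peak medians, and whether the difference holds by run was not determined.

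**Figure D1:**
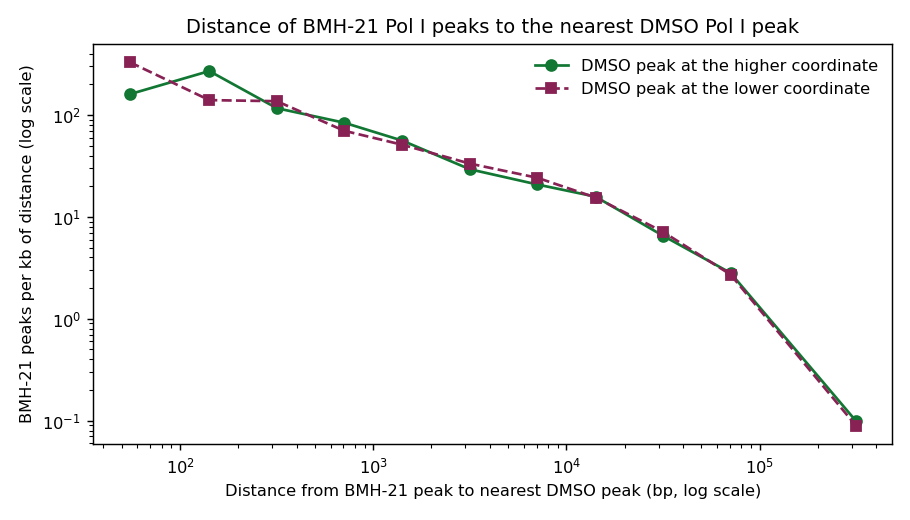
BMH-21 peaks per kb of distance (vertical, log scale) against the distance in bp to the nearest DMSO peak (horizontal, log scale), for DMSO peaks at the higher and at the lower coordinate; each point is 1 distance bin. Both curves fall together from 500 bp outward and differ in the first 2 bins, where 16 against 33 and then 27 against 14 peaks were counted. The genome length found at each distance, which also falls, was not divided out.

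Neither side was favoured over the whole list. The nearest DMSO peak stood at the higher coordinate for 952 of 1932 BMH-21 peaks (49.3%, interval 47.0 to 51.5) and for 120 of the 243 within 1 kb (49.4%, 42.9 to 55.8). The median distance was 16306 bp on the higher side and 15637 bp on the lower side. In the first 100 bp the DMSO peak was at the higher coordinate for 16 and at the lower for 33 peaks, and in the next 100 bp for 27 and 14. The coordinate side is not the direction of a gene.

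The stretches between neighbouring DMSO peaks that held a BMH-21 peak numbered 1409 of 42523 (3.31%). Their median length, taken per BMH-21 peak, was 97257 bp. Long stretches have more room for a peak, and 50% of the length between DMSO peaks lay in stretches of at most 157625 bp. The per-peak median was thus below that length. Each stretch was divided into 5 equal parts, and 23.5% of 1923 BMH-21 peaks lay in the part at the low coordinate (interval 21.6 to 25.4), 17.7%, 17.9% and 15.9% in the inner parts and 24.96% (23.04 to 26.96) in the part at the high coordinate. BMH-21 peaks were thus listed more often in the outer parts of a stretch than in the inner ones. An outer part of a long stretch can reach far from a DMSO peak. The intervals treat the 1923 peaks as separate, although they lay in only 1409 stretches.

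From the DMSO side few peaks had a BMH-21 neighbour: 246 of 42547 (0.578%) within 1 kb and 1044 (2.45%, interval 2.31 to 2.61) within 10 kb. The 246 DMSO peaks within 1 kb had a median score of 105.7 (90.7 to 119.9) and a median width of 508.5 bp (478 to 571), and the other 42301 had 98.3 (97.58 to 98.99) and 464 bp (462 to 465). The intervals of the scores overlapped and those of the widths did not.

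The lists met at 5 genes described here, chosen after their peaks were seen. At ACTB, cytoplasmic beta actin, 4 BMH-21 peaks with scores of 91.4 to 560 covered 1748 bp between DMSO peaks 104 and 160 bp away. At ACTG1, 4 BMH-21 peaks with scores of 92.4 to 543 covered 2056 bp between a DMSO peak with a score of 124 at the lower side, 172 bp away, and one with 165 at the higher side, 176 bp away. No DMSO peak stood between the BMH-21 peaks of either actin gene. ACTG1 is on the minus strand in the promoter table, so its higher side is the side of the start printed above.

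CKB, the brain type of creatine kinase, also on the minus strand, had 3 BMH-21 peaks with scores of 69.0 to 267 between DMSO peaks that were 11 bp away on the lower side and 3240 bp away on the start side. At GAPDH, a glycolytic enzyme gene on the plus strand, 1 BMH-21 peak of 783 bp with a score of 659 had 2 DMSO peaks on its start side, 1870 bp away, and 1 on its end side, 232 bp away. FTL, the ferritin light chain, went another way: its 2 DMSO peaks, with scores of 52.2 and 55.2, stood between its 3 BMH-21 peaks, and 1 gap was 1 bp wide.

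**Figure D2:**
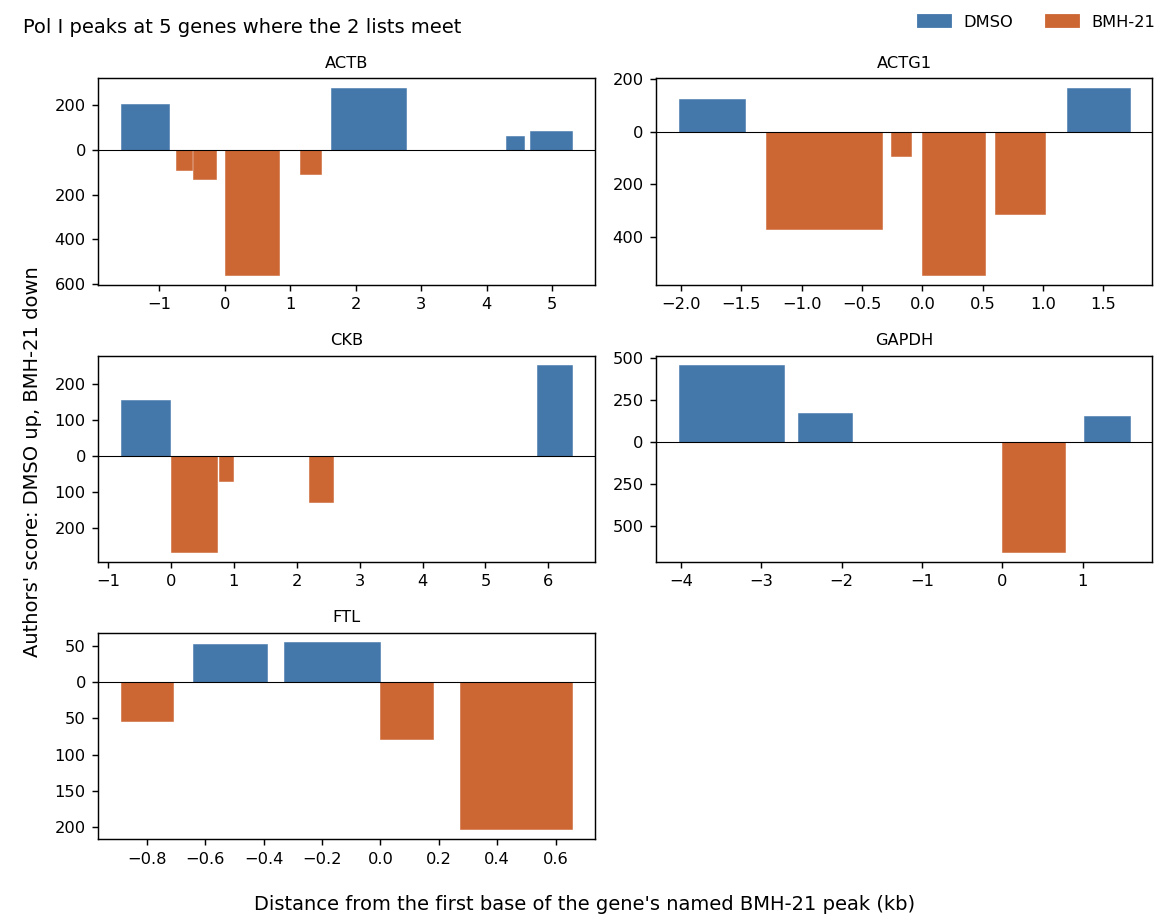
Pol I peaks at ACTB, ACTG1, CKB, GAPDH and FTL, drawn to scale by distance in kb from the first base of the named BMH-21 peak; bar width is peak width and bar height the authors' score, DMSO upward and BMH-21 downward, whose scales may differ between lists. In 4 of the genes the BMH-21 bars stand between DMSO bars, and in FTL the DMSO bars stand between BMH-21 bars.

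The 10 smallest gaps ran from 0 to 11 bp. The gap of 0 bp was at ZBED5, a zinc finger gene, between a BMH-21 peak of 227 bp and a DMSO peak of 1565 bp with a score of 583, and the gap of 1 bp was the one at FTL. SLC35F1, a solute carrier, had a gap of 4 bp, MIRLET7BHG, the host gene of let-7 microRNAs, had 2 gaps of 7 bp, RPS15, a ribosomal protein gene, had 10 bp, and CKB and CYTH3, an exchange factor of small GTPases, had 11 bp each. Unnamed regions of chromosomes 3 and 5 had gaps of 2 and 5 bp. In these 10 pairs the BMH-21 peak was 179 to 738 bp wide, and 9 of the 10 scored below 100. Such scores were usual in the whole BMH-21 list, which had a median score of 60.7.

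BMH-21 peaks were narrower than DMSO peaks. The median width was 216 bp (interval 213 to 220) in the BMH-21 list and 464 bp (462 to 466) in the DMSO list, and the middle 50% ran from 197 to 284 bp and from 384 to 579 bp. From 180 up to 240 bp wide were 52.4% of BMH-21 peaks (50.1 to 54.6) and 0.712% of DMSO peaks (0.634 to 0.797). The fullest bin of 20 bp was 200 to 219 bp in the BMH-21 list (463 peaks) and 400 to 419 bp in the DMSO list (2813 peaks).

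At the wide end the order turned. Peaks of 2000 bp or more made up 1.66% of the BMH-21 list (32 peaks, interval 1.14 to 2.33) and 0.0940% of the DMSO list (40 peaks, 0.0672 to 0.128). They held 19.6% of the 0.694 Mb covered by BMH-21 peaks and 0.498% of the 21.6 Mb covered by DMSO peaks. The widest BMH-21 peak, 10661 bp, lay on chromosome Y (chrY:58879374-58890034), and the 10 widest, from 5219 bp upward, were all unnamed, with 4 on chromosome Y at its longest peak-free stretch, 2 on chromosome Y further away and the other 4 on chromosomes 8, 10, 17 and X. Of these 10, 8 lay at most 0.0539 Mb from their chromosome's longest peak-free stretch and the pair further away on chromosome Y, 18.7 Mb from it, did not.

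**Figure D3:**
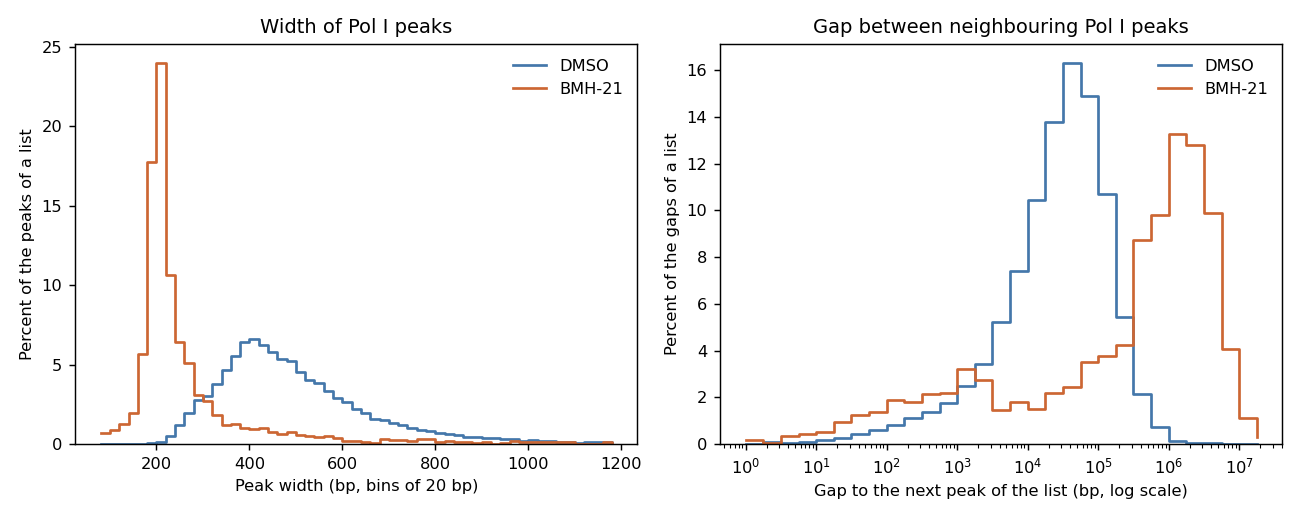
Left, percent of the peaks of each list by width in bins of 20 bp up to 1200 bp; right, percent of the gaps between neighbouring peaks of a list by gap length in bp (log scale). The BMH-21 widths gather in the bin of 200 to 219 bp and the DMSO widths in a broad hump around 400 to 419 bp; the BMH-21 gaps are most frequent above 1000000 bp and also reach more often below 1000 bp.

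Spacing differed in the same uneven way. The median gap to the next peak was 32108 bp (31534 to 32682) in the DMSO list and 607380 bp (527291 to 692480) in the BMH-21 list, which holds fewer peaks. Gaps of 1 kb or less made up 13.2% of BMH-21 gaps (11.7 to 14.8) and 6.79% of DMSO gaps (6.56 to 7.04), gaps of 10 kb or less 22.3% (20.4 to 24.2) and 25.3% (24.9 to 25.8), and gaps of 100 kb or less 32.0% and 80.8%. The order at 10 kb depended on which peaks were kept: with scores of at least the DMSO median in both lists (21283 DMSO and 326 BMH-21 peaks) it was 47.4% of BMH-21 and 14.7% of DMSO gaps, and with peaks of at least 300 bp 39.5% and 24.3%. The median gap turned as well at that score, to 16344 bp in the BMH-21 list and 64663 bp in the DMSO list. Against an equal number of peaks, the 1932 highest-scored DMSO peaks had a median gap of 731183 bp, and 2.62% of their gaps (1.95 to 3.44) were 10 kb or less.

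Running numbers show which neighbours were next to each other before peaks were left out. All 251 BMH-21 gaps of 1 kb or less skipped no number, and of the 791 gaps over 1000 kb only 2.53% skipped none, with a median of 11 numbers missing. Of the DMSO gaps of 1 kb or less 99.6% skipped none. Of the DMSO gaps over 1000 kb 34.8% skipped none, so in both lists longer gaps more often held unlisted numbers. A short gap has little room for another peak, and this order is therefore not a trait of the BMH-21 list.

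Runs, defined as 5 or more peaks with no gap over 10 kb, held 236 BMH-21 peaks (12.2%, interval 10.8 to 13.8) in 26 runs and 1733 DMSO peaks (4.07%, 3.89 to 4.27) in 288 runs. No number was skipped in 21 of the 26 BMH-21 runs and in 187 of the 288 DMSO runs. A peak of the other list stood inside 3 of the BMH-21 runs and 24 of the DMSO runs. By gene, 16 BMH-21 runs (144 peaks, median width 251 bp) lay at named genes, 7 (60 peaks, 1056 bp) no more than 2.43 Mb from the longest peak-free stretch, 2 (27 peaks, 562 bp) at chromosome ends and 1 (5 peaks) on chromosome Y near 13.1 Mb. These classes were made after the runs were seen.

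The run with the most peaks of either list was at FLNC, the muscle actin cross-linker filamin C (chr7:128477387-128499262). It held 25 BMH-21 peaks of 130 to 776 bp in 21.9 kb, with a median gap of 517 bp, scores from 55.6 to 354, no number skipped and no DMSO peak within 78443 bp. LIFR, the receptor of leukemia inhibitory factor, held 15 peaks in 28.8 kb with scores up to 302, and its nearest DMSO peak was 33042 bp away. MAP1B held 12 peaks that covered 64.3% of 15.8 kb, the largest share of these 3 runs, with a nearest DMSO peak at 6078 bp. None of these 3 runs had a DMSO peak inside, which was usual, since only 3 of all 26 BMH-21 runs had one.

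GFAP held 6 peaks of 129 to 576 bp in 7.53 kb with scores of 115, 782, 343, 547, 298 and 1036 in order of coordinate. AQP4, the astrocyte water channel, held 9 peaks with scores from 72.7 to 306, and a DMSO peak of 278 bp with a score of 57.7 lay 618 bp beyond. The other runs at genes were DPYSL3 and OGFRL1 with 10 peaks each, CLU and EEF2, a translation elongation factor, with 8, PSAP, the lysosomal protein prosaposin, and ZBTB20, a transcription factor, with 7, IGFBP5 and SLC1A3 with 6, and CDC42EP4, HSPA8 and MIRLET7BHG with 5. Chromosome 5 held 4 of the gene runs (SLC1A3, LIFR, MAP1B and DPYSL3).

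DMSO peaks also lay close beyond 1 end of other gene runs, of which EEF2, HSPA8 and CDC42EP4 are given as examples chosen after their values were seen. The 8 BMH-21 peaks at EEF2 ended 657 bp before a DMSO peak, the highest-scored of the 3 DMSO peaks there reaching 206. Beyond the other end, within 10 kb, lay DMSO peaks with scores of 55.8 and 59.9. At HSPA8, a constitutive chaperone, 5 BMH-21 peaks with scores of 68.8 to 160 ended 130 bp before 3 DMSO peaks, the last of 1521 bp with a score of 478. At CDC42EP4, an effector of a small GTPase, 5 BMH-21 peaks with scores of 71.8 to 269 ended 177 bp before a DMSO peak with a score of 213. A DMSO peak with a score of 54.1 lay within 10 kb of the other end of that run.

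The DMSO runs with the most peaks included genes known from prostate cancer. FOLH1, prostate-specific membrane antigen (chr11:49181398-49230434), held 16 DMSO peaks in 49.0 kb with scores from 50.9 to 663, the highest in a peak of 2210 bp, and 2 BMH-21 peaks of 232 and 211 bp stood inside with scores of 76.3 and 53.3. PPFIA2, a liprin of synapses, also held 16, with scores up to 499 and no BMH-21 peak within 227069 bp. STEAP2, a metalloreductase of prostate epithelium, held 13 with scores up to 290 and 1 BMH-21 peak inside. HOXB13, a homeobox factor of the prostate, held 12 peaks covering 46.0% of 19.8 kb with scores up to 751 and 1 BMH-21 peak of 209 bp, and PRRC2B, a proline-rich protein gene tied with it at 12, held none.

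MIRLET7BHG held runs of both lists. Its 16 DMSO peaks spread over 32.8 kb with scores from 50.4 to 254, 5 BMH-21 peaks stood among them with scores of 55.4 to 90.8, and 16 numbers were skipped in the DMSO run. Among the 16 BMH-21 runs at named genes it was the only one with DMSO peaks inside, 4 of them.

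**Figure D4:**
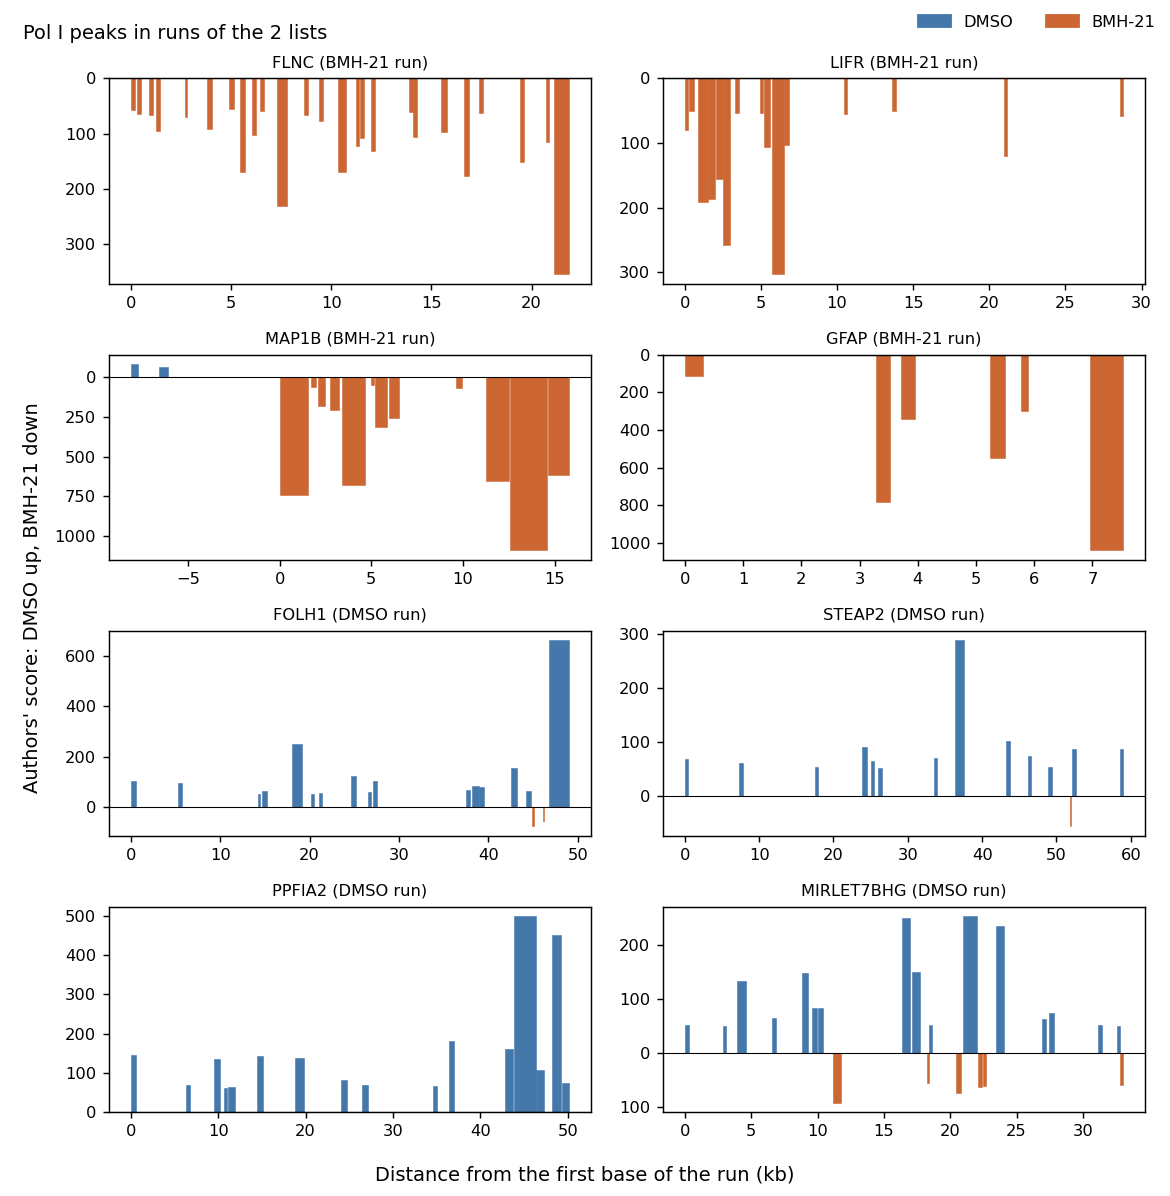
Peaks in 4 BMH-21 runs (FLNC, LIFR, MAP1B, GFAP) and 4 DMSO runs (FOLH1, STEAP2, PPFIA2, MIRLET7BHG), drawn to scale by distance in kb from the first base of the run, with the flanking 10 kb; bar width is peak width and bar height the authors' score, DMSO upward and BMH-21 downward. The 4 BMH-21 runs hold no DMSO peak, and FOLH1, STEAP2 and MIRLET7BHG hold 2, 1 and 5 BMH-21 peaks inside their DMSO runs.

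Along the chromosomes the main difference lay beside the longest stretch free of peaks in both lists, which on most chromosomes is the centromere or other heterochromatin missing from the build. Within 1 Mb of it lay 149 BMH-21 peaks (7.71%, interval 6.56 to 8.99) with a median width of 553 bp and 483 DMSO peaks (1.14%, 1.04 to 1.24) with a median width of 488 bp. Between 1 and 2 Mb the shares were 1.19% and 1.39%, and from 2 to 5 Mb 4.19% and 4.32%. The difference was thus in the nearest 1 Mb. The intervals treat clustered peaks as separate, and 7 runs no more than 2.43 Mb from the stretch held 60 BMH-21 peaks. The higher share therefore rests in part on few loci. With peaks within 1000 bp merged, 12.4% of BMH-21 and 6.89% of DMSO regions lay within 5 Mb of the stretch. The 253 BMH-21 peaks within 5 Mb made up 13.1% of the list and 31.2% of its covered length. Such sequence is repeated, and where a read was placed among copies was not tested.

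Chromosome ends differed less. Within 1 Mb of an end lay 4.45% of BMH-21 peaks (3.58 to 5.47) and 2.12% of DMSO peaks (1.99 to 2.27). Those 86 BMH-21 peaks included 27 from the 2 runs at chromosome ends and 6 from 1 run on chromosome Y. Their interval treats clustered peaks as separate, so the higher share rests in part on few loci. Within 10 Mb lay 17.0% and 16.4%, whose intervals overlapped. The 2 runs at chromosome ends lay on chromosome 4 (14 peaks, chr4:190986312-191012763) and chromosome 10 (13 peaks, chr10:135473732-135501430), whose ends carry related repeat arrays, and where a read was placed between them was not tested. By 10 equal parts of a chromosome the BMH-21 share ran from 7.61% to 12.0% and the DMSO share from 9.04% to 11.5%, and part 4 from the low coordinate held 12.0% of BMH-21 (10.5 to 13.5) and 9.04% of DMSO peaks (8.77 to 9.32).

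**Figure D5:**
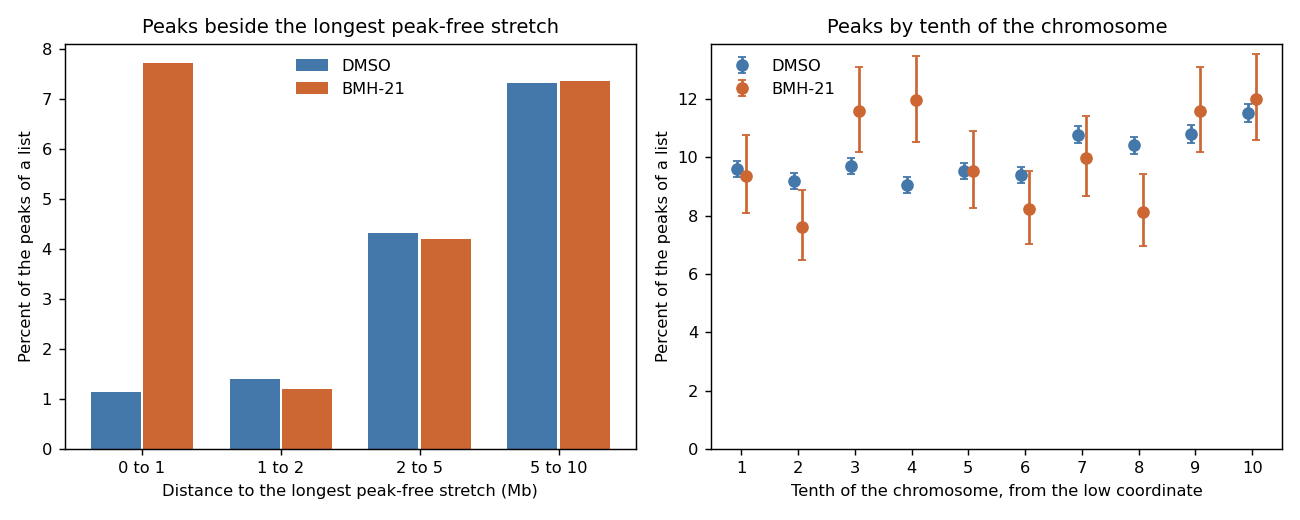
Left, percent of the peaks of each list by distance in Mb to the longest peak-free stretch of the chromosome; right, percent of peaks by 10 equal parts of the chromosome, with exact 95% intervals over peaks. The lists differ in the bin of 0 to 1 Mb (7.71% of BMH-21 and 1.14% of DMSO peaks), and their bars are near each other beyond it.

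The number of BMH-21 peaks per DMSO peak was 0.0454 over all chromosomes. It was highest on chromosome Y (0.192, 33 against 172 peaks) and chromosome 5 (0.0712, 193 against 2709), and lowest on chromosome 3 (0.0277, 83 against 2994). Without peaks in BMH-21 runs chromosome Y had 0.128, and chromosome 5, with 0.0554, came after chromosome 21 with 0.0613. By covered length chromosome Y had 0.874 and chromosome X 0.0946, and chromosome 5 had 0.0495. The order of the autosomes rests on as few as 28 BMH-21 peaks (chromosome 22).

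With runs and the vicinity of the longest peak-free stretch set aside, 1503 BMH-21 peaks (77.8%) remained. They had a median width of 210 bp and a median score of 59.3, 88.8% scored below 100, and 42.8% lay within 10 kb of a DMSO peak. The 144 peaks of gene runs had a median width of 251 bp and a median score of 107.6. Of these 144 peaks 28.5% (41 peaks) scored 200 or more, and 25% lay within 10 kb of a DMSO peak. They came from only 16 runs, so these shares rest on few loci. A score of 200 or more was also held by 22 of the 253 peaks near that stretch (8.70%) and by 51 of the 1503 others (3.39%). Most BMH-21 peaks thus lay outside runs, were narrow and had scores near the lowest listed.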

How the data were processed

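The 2 deposited lists give, per the file headers, chromosome, start, end, a peak name and a value headed as a p-value; since values start at 50 and their scale is not stated, they are treated as the authors' score. The build was hg19, and the tools were deepTools 3.5.4, Bowtie2 2.2.1 and CASAVA 1.8.2, per the submitters' processing notes. The deposited peak names begin with MACS, a peak caller; not given in the sources used here are its version and settings, the use of input, duplicate removal and the selection of peaks. Peaks were listed per library. A region with no listed peak is not shown to lack Pol I. The read depth is unknown.

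Starts were converted to 1-based positions. Distances are gaps between nearest edges, in bases lying between them, and the longest peak-free stretch was found from both lists together. Chromosome ends were taken as the first coordinate and the highest peak end in either list, not as the chromosome length. Shares have exact Clopper-Pearson 95% intervals, and medians exact order-statistic intervals. Python 3.11.15, NumPy 2.4.6, pandas 2.3.3 and SciPy 1.17.1 were used. On simulated data 2000 of 2000 distances and 1 of 1 runs were recovered. Regions named were the 10 highest-scored peaks and 5 runs with the most peaks per list (6 DMSO runs, by a tie), the 10 smallest gaps and the 10 widest BMH-21 peaks; 1 of them is not reported here. Lists of Pol I factors, ribosomal protein genes and small nucleolar RNA hosts were not counted, since they need an hg19 annotation. The members and lists were chosen with earlier results of these data known.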

Additional observations from a re-analysis of the deposited data

How the results depend on the processing

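Beside 18 results, 93 alternative values were computed (87 planned and 6 chosen after seeing the data), and 41 stayed inside the interval of the value reported or within 1.5 times of it. The cause of a move was not tested. The list with the higher value stayed the same in all alternatives for median width (3), for the share near chromosome ends (6) and for the share near the longest peak-free stretch (6), in 4 of 5 for the median gap and in 3 of 6 for the share of gaps of 10 kb or less.

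With scores at or above the DMSO median (98.3; 21283 DMSO and 326 BMH-21 peaks), the median distance of BMH-21 peaks to a DMSO peak was 48981 bp, 22.4% lay within 10 kb and 54.3% had it at the higher coordinate, and 0.329% of DMSO peaks lay within 10 kb of a BMH-21 peak. The median gap was 64663 bp (DMSO) and 16344 bp (BMH-21), gaps of 10 kb or less 14.7% and 47.4%, the median width 567 and 432 bp, the DMSO share within 5 Mb of an end 9.42% and the BMH-21 share near the longest peak-free stretch (5 Mb) 17.8%. The ratio of BMH-21 to DMSO peaks was 0.10 on chromosome Y and 0.00138 on chromosome 3, and by covered length 0.874 and 0.0125.

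With peaks of at least 300 bp (39715 and 434), the median distance was 19869 bp, 33.6% of BMH-21 and 0.458% of DMSO peaks had the other list within 10 kb, the median gap was 33773 and 142003 bp, gaps of 10 kb or less 24.3% and 39.5%, the BMH-21 share near ends 15.2% and near the stretch 28.6%. On autosomes only, the median DMSO gap was 31454 bp. With peaks within 1000 bp merged, the median gap was 36441 (DMSO) and 885827 bp (BMH-21), gaps of 10 kb or less 19.9% and 10.5%, the median DMSO width 474 bp, the DMSO share near ends 8.72% and within 10 kb of a BMH-21 peak 2.24%. At an equal number, the highest-scored DMSO peaks had a median gap of 731183 bp, 2.62% of gaps at 10 kb or less and a median width of 817.5 bp.

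Other limits moved the values as they must. Within 1 kb and 100 kb lay 12.6% and 91.3% of BMH-21 peaks and 0.578% and 13.2% of DMSO peaks. Gaps of 1 kb or less were 6.79% (DMSO) and 13.2% (BMH-21). Within 1 and 10 Mb of an end lay 2.12% and 16.4% of DMSO and 4.45% and 17.0% of BMH-21 peaks, and within 1 Mb of the stretch 1.14% and 7.71%. DMSO runs numbered 107 with gaps of at most 5 kb, 811 with 20 kb and 11 with 10 or more peaks, and BMH-21 runs of 10 or more peaks 10. No paired analysis was possible because each treatment had 1 library.

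The unknown depth, the unstated selection of peaks and the single library per treatment limit every comparison. Their part in list length, width and spacing was not tested, and treatment and library cannot be told apart.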
